A study of Mus musculus with 6 samples.

Results

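In all, 9 genes of plasminogen activation and of the control of coagulation were followed in TGF-β-treated mouse cardiac fibroblasts with and without *Tet3* deletion. They are the plasminogen activators *Plau* and *Plat*, the urokinase receptor *Plaur*, the secreted serpins *Serpine2* and *Serpinf1*, tissue factor (*F3*), the Kunitz-type inhibitors *Tfpi* and *Tfpi2*, and thrombomodulin (*Thbd*). They were picked by symbol, 9 of 22063 genes in the deposited table, and all 9 had enough counts to be tested. The cells were primary fibroblasts of the heart, taken from Tet3 f/f mice (C57BL/6 J background), in which loxP sites flank part of *Tet3*. The CRE group received an adenovirus coding for Cre recombinase, which cuts out DNA between loxP sites, and the GFP group one without Cre that codes for green fluorescent protein. The study's reagent list names a green fluorescent protein in both viruses. Every library, GFP controls included, came from cells that carried the floxed alleles, received a virus and were treated with TGF-β. Untreated cells were not analysed here. Each group held 3 libraries. The study calls its replicates biological, but the ages of the mice and whether each library came from its own animals or culture are not given in the sources used here, so the p-values measure the spread between these libraries. The groups differ in the presence of Cre as well as in *Tet3*, and these cannot be told apart.

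Plasmin is the protease that dissolves fibrin and helps to break down extracellular matrix. It is made from plasminogen by tissue-type plasminogen activator (the product of *Plat*) or by urokinase (the product of *Plau*), which works mostly on the cell surface, held by its receptor. Serpins are inhibitors that trap serine proteases. On the other side of the balance, tissue factor binds factor VII to start coagulation, TFPI blocks that complex, and thrombomodulin turns thrombin from a clotting enzyme into an activator of protein C. Fibroblasts around vessels and in healing tissue are known to express tissue factor and plasminogen activators, and TGF-β is a known regulator of plasminogen activation.

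The targeted gene was examined to check the labels. *Tet3* had 1044, 965 and 1000 counts in GFP replicates 1 to 3, against 642, 649 and 637 in CRE replicates 1 to 3, and its log2 fold change was -0.72 (SE 0.08, edgeR adjusted p = 5.36e-05). These counts cover the whole gene, not the deleted part alone, and 3 annotated genes overlap *Tet3*. The libraries held between 17002126 and 20343590 counts. Of the 12862 genes tested, 51.2% passed an adjusted p of 0.05 in edgeR's quasi-likelihood test, 25.5% higher and 25.7% lower in CRE, and 59.6% had groups that did not overlap. Scaling by library size alone, in place of the TMM scaling used here, shifted all genes upward, their median log2 fold change going from 0.01 to 0.17, with 43.0% of tested genes higher and 16.2% lower. With limma on log2(FPKM + 1), 38.7% were higher and 14.9% lower. Fibroblast markers were abundant in both groups, with the 10 listed genes summing to between 29301 and 30470 CPM (counts relative to the TMM-scaled library total) in GFP and between 18112 and 19521 CPM in CRE, and 9 of the 10 were lower in CRE. Transcripts of endothelial cells were also present. The 13 endothelial markers summed to between 483 and 530 CPM in GFP and between 226 and 259 CPM in CRE, 11 were lower in CRE and none higher, and none was at 0. The 11 macrophage markers summed to between 59.7 and 68.1 CPM in GFP and between 35.1 and 38.8 CPM in CRE, and 3 of the 7 tested were lower. For smooth muscle and pericytes, 5 of 9 markers fell and 1 rose, with sums between 119.7 and 129.2 CPM in GFP and between 94.0 and 109.2 CPM in CRE. Of 6 mesothelial markers, which summed to between 7.95 and 9.13 CPM in GFP and between 8.34 and 11.9 CPM in CRE, 3 were higher and 1 lower. The 5 platelet markers summed to between 4.62 and 7.44 CPM in GFP and between 3.80 and 4.14 CPM in CRE, and none passed. None of the 8 cardiomyocyte markers exceeded 15 counts in any library, and *Myh6* and *Myl3* had no count. In bulk RNA, fewer cells of a type and less RNA per cell cannot be told apart.

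The promoter sequences of 4 genes are shown first, because TET3 acts on methylated cytosines of CpG dinucleotides and these promoters differ in how many they hold. Each is the 250 bases before the RefSeq transcription start in GRCm38.p6, written 5′ to 3′ along the gene, with every CpG in capitals. *F3* (chr3:121723287-121723536, plus strand) and *Serpine2* (chr1:79858666-79858915, minus strand) are CpG-dense. *Serpinf1* (chr11:75422624-75422873, minus strand) and *Tfpi* (chr2:84476760-84477009, minus strand, the start nearer to that of GENCODE M21) hold fewer CpG than the median window given below. The *Serpine2* window belongs to a RefSeq start that lies inside the gene as GENCODE M21 draws it.
F3: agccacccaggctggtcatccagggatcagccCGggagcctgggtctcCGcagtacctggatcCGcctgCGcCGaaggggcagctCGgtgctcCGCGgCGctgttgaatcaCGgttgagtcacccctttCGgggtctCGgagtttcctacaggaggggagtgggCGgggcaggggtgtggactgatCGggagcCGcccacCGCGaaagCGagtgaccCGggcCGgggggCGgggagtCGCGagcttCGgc
Serpine2: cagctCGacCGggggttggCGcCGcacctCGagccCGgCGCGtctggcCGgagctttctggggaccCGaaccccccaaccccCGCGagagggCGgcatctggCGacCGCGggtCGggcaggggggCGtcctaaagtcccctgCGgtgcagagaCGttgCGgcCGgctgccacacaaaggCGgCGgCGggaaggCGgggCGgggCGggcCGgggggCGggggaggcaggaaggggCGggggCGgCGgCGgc
Serpinf1: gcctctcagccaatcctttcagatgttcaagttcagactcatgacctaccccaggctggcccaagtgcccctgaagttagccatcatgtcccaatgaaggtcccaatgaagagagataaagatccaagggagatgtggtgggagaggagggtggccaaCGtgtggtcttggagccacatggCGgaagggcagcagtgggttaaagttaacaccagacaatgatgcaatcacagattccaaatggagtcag
Tfpi: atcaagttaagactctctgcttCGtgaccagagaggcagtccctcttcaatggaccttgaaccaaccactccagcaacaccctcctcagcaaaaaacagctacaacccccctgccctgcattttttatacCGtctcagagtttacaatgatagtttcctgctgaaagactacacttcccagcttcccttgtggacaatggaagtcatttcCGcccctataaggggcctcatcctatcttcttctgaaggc

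The *F3* window holds 24 CpG and the *Serpine2* window 34, against 2 for *Serpinf1* and 3 for *Tfpi*. The median over 32851 RefSeq windows of the same length was 6. Of these windows 3.53% held at least as many as *Serpine2* and 12% at least as many as *F3*. Windows with as few as *Serpinf1* made up 29% and those with as few as *Tfpi* 37.8%, so such low counts are common. Of the 4 genes shown *Serpine2* was higher in CRE and the other 3 were lower (values below), so the lower genes had windows above and below that median. Letters of known binding motifs were searched on both strands, a match on either strand at the same place being counted once. The AP-1 motif TGANTCA occurs 2 times in the *F3* window, once in that of *Plaur* and once in 1 of the 3 *Tfpi2* windows (11 CpG, at a RefSeq start well inside the gene), against 6.75% of all windows with at least 1. The GC box GGGCGG occurs 6 times in *Serpine2*, 3 times in *F3*, 3 times in *Plaur*, 2 times in 1 *Tfpi2* window and once in each of the 2 *Tfpi* windows (32.7% of all windows have it). The SMAD motif CAGAC occurs 2 times in *Serpinf1*, 2 times in 1 *Tfpi2* window, 2 times in the *Tfpi* window not shown, once in *Serpine2*, and not in *F3*, *Plaur* or the *Tfpi* window shown (42.2% of all windows), and the TEAD motif GGAATG occurs in none of the 9 windows of these genes (12.6% of all windows). Each GC box holds a CpG by its own letters. RefSeq windows were matched for 6 of the 9 genes. The set of windows used here had no entry for *Plau*, *Plat* and *Thbd*, which does not mean that RefSeq lacks a start for them. Methylation was not measured in these libraries.

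Of the 9 genes, 3 were higher in CRE (*Plat*, *Serpine2* and *Tfpi2*), 4 were lower (*Plau*, *Serpinf1*, *F3* and *Tfpi*), and *Plaur* and *Thbd* did not pass the threshold. That is 77.8% called, against 51.2% of all genes tested. Groups did not overlap for 6 of the 9, against 59.6% of all genes tested. The median log2 fold change of the 9 was -0.20, against 0.01 over all genes tested. At the threshold of the study, which takes p under 0.05 before adjustment and a CRE level over 1.5 or under 0.66 times GFP, only *Plat* was higher (7.52% of tested genes were) and *Plau*, *F3* and *Serpinf1* were lower (10.3% of tested genes were). The GENCODE M21 annotation has no gene on either strand that overlaps any of the 9.

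**Figure D1:**
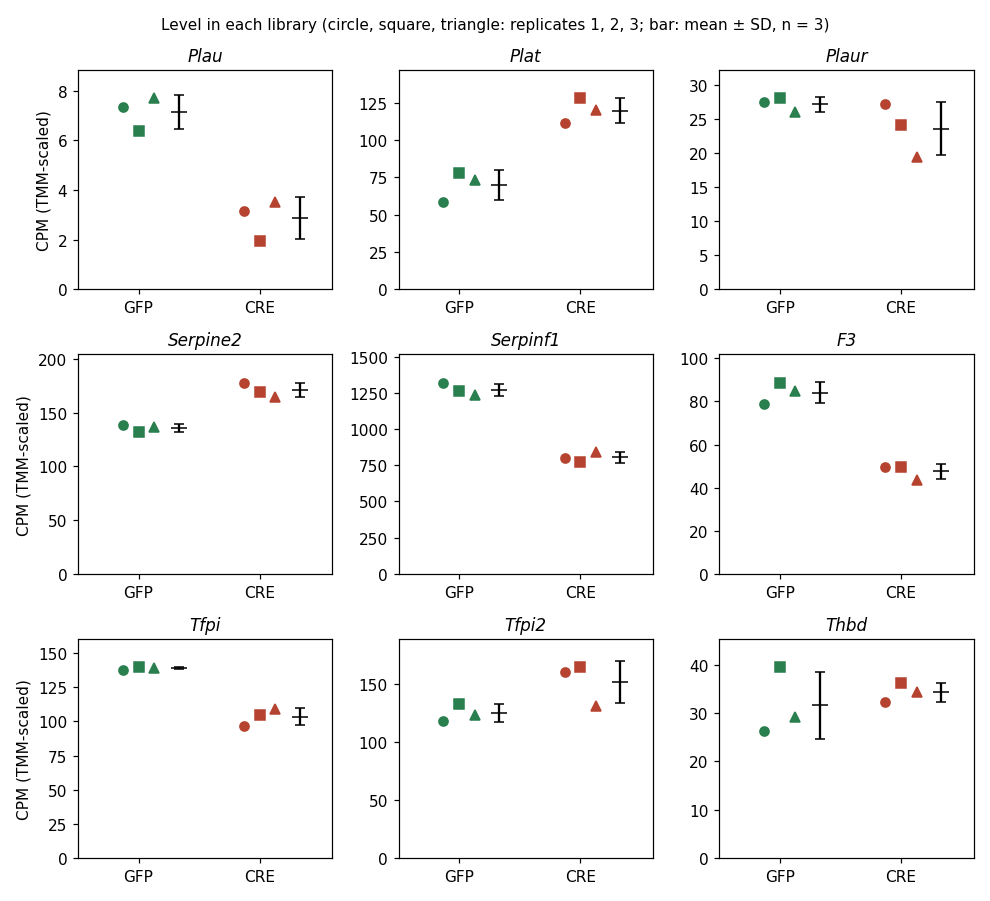
Level of each of the 9 genes (CPM, TMM-scaled, axis from 0) in the 3 GFP and the 3 CRE libraries, one point a library, with mean ± SD beside each group. The groups are apart for *Plau*, *Plat*, *Serpine2*, *Serpinf1*, *F3* and *Tfpi*, and overlap for *Plaur*, *Tfpi2* and *Thbd*.

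The 2 plasminogen activators changed in opposite directions. *Plat* (ENSMUSG00000031538, chromosome 8, positions 22757727 to 22782844, plus strand) codes for tissue-type plasminogen activator, the fibrin-dependent activator. Its level was 58.4, 78.0 and 73.5 CPM in GFP replicates 1, 2 and 3 and 111.4, 128.0 and 120.2 CPM in CRE replicates 1, 2 and 3. GFP replicate 1 was the lowest library, and all 3 CRE libraries lay above all 3 GFP libraries. The mean rose from 70.0 ± 10.2 to 119.9 ± 8.31 CPM (SD, n = 3), 1.71 times the GFP mean, with a log2 fold change of 0.77 (SE 0.09, edgeR adjusted p = 8.25e-05). Of all tested genes, 12.5% changed by as much in either direction. Without GFP replicate 1 the log2 fold change of *Plat* was 0.66 (edgeR adjusted p = 6.15e-06).

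*Plau* (ENSMUSG00000021822, chromosome 14, positions 20836660 to 20843385, plus strand) codes for urokinase, the activator that works at the cell surface. It was the least abundant of the 9, with 118, 113 and 148 counts under GFP, against 59, 35 and 67 under CRE. Normalised, these were 7.34, 6.37 and 7.69 CPM in GFP and 3.17, 1.94 and 3.54 CPM in CRE. No CRE library reached the lowest GFP library, and CRE replicate 2 stood lowest of the 6. *Plau* fell to 40.4% of its GFP level of 7.13 ± 0.683 CPM (SD, n = 3; log2 fold change -1.30, SE 0.20, edgeR adjusted p = 0.000366), the furthest from 0 of the 9. As large a change was seen in 4.49% of tested genes. On log2(FPKM + 1) values, where the added 1 weighs on a gene this low, the change was -0.76, still past the threshold (limma adjusted p = 0.00178).

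Ratios of genes within a library, which do not depend on how libraries are scaled, are given for 3 pairs. FPKM, which also allows for transcript length, was used for ratios. The ratio of *Plau* to *Plat* was 0.135, 0.0881 and 0.113 with GFP, against 0.0307, 0.0163 and 0.0317 with CRE. The log2 difference of CRE from GFP was -2.13, a description that restates the opposite changes of the 2 genes and adds no test to them. The summed FPKM of both activators was almost all *Plat*. Set against *Serpine2*, an inhibitor of both, this sum gave ratios of 0.374, 0.485 and 0.413 in GFP and 0.426, 0.526 and 0.557 in CRE, and the groups overlapped (log2 difference of 0.25, exact two-sided permutation p = 0.2, adjusted 0.2 over 3 ratios). This difference was 0.35 on scaled counts and 0.16 without GFP replicate 1.

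*Plaur* (ENSMUSG00000046223, chromosome 7, positions 24462484 to 24475968, plus strand) codes for the receptor that holds urokinase on the cell surface. Its level was 27.5, 28.1 and 26.0 CPM in GFP and 27.2, 24.2 and 19.5 CPM in CRE. The GFP libraries were close together, while the CRE libraries spread from within the GFP range to well below it. The log2 fold change of -0.20 (SE 0.11) did not pass the threshold (edgeR adjusted p = 0.138). Without CRE replicate 1, the highest CRE library, it was -0.31 and passed (adjusted p = 0.0318), and by library size alone it was -0.04.

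**Figure D2:**
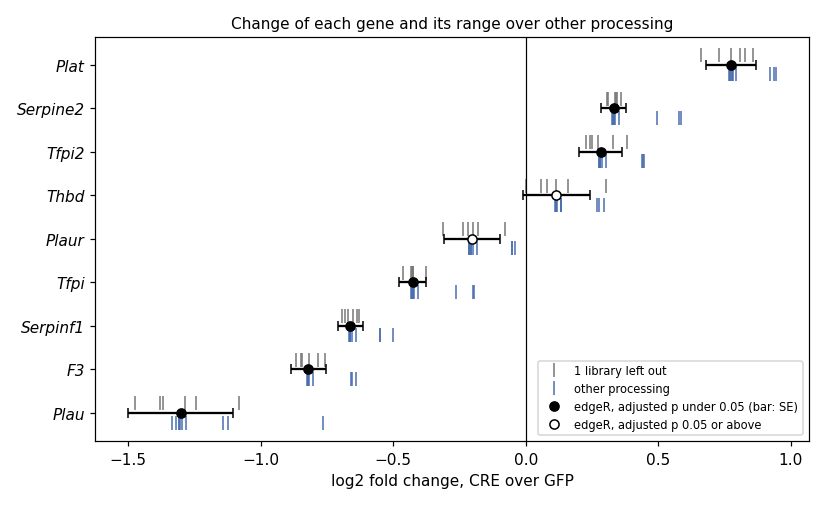
Log2 fold change of CRE over GFP for the 9 genes with its SE (circles, filled where the edgeR adjusted p was under 0.05), with the values from fits that each left out 1 library (grey ticks) and from other processing (blue ticks). *Plau* is lowest at -1.30 and *Plat* highest at 0.77, and no tick crosses 0.

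The pair of secreted serpins also split. *Serpine2* (ENSMUSG00000026249, chromosome 1, positions 79794197 to 79861180, minus strand) codes for protease nexin-1, which inhibits thrombin, urokinase and tissue-type plasminogen activator. It was measured at 138.5, 131.6 and 136.6 CPM in GFP and at 177.6, 169.6 and 164.7 CPM in CRE. Each CRE library was above each GFP library, and both groups were tight. The mean rose from 135.6 ± 3.54 to 170.7 ± 6.50 CPM (SD, n = 3; log2 fold change 0.33, SE 0.05, edgeR adjusted p = 0.000203). A change of this size is common here, since 39.6% of tested genes changed by as much. On FPKM values the change was larger, 0.58 with limma on log2(FPKM + 1).

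*Serpinf1* (ENSMUSG00000000753, chromosome 11, positions 75409769 to 75422701, minus strand) codes for pigment epithelium-derived factor, a serpin by structure that does not inhibit proteases and is known as an inhibitor of vessel growth. It was the most abundant of the 9. Its level was 1318, 1263 and 1236 CPM in GFP and 798, 772 and 844 CPM in CRE. The highest CRE library remained well below the lowest GFP library. *Serpinf1* fell to 63.2% of 1272 ± 41.9 CPM (SD, n = 3; log2 fold change -0.66, SE 0.05), with the smallest adjusted p of the 9 (edgeR, 2.67e-06).

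Tissue factor and *Tfpi* were both lower in CRE, while *Tfpi2* was higher. *F3* (ENSMUSG00000028128, chromosome 3, positions 121723537 to 121735048, plus strand) codes for tissue factor, the membrane receptor for factor VII that starts coagulation. It stood at 78.9, 88.6 and 84.6 CPM in GFP and at 49.7, 49.5 and 43.7 CPM in CRE, with no overlap. *F3* fell to 56.7% of 84.0 ± 4.86 CPM (SD, n = 3; log2 fold change -0.82, SE 0.07, edgeR adjusted p = 5.41e-06). Of tested genes 11.5% changed by as much.

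*Tfpi* (ENSMUSG00000027082, chromosome 2, positions 84432855 to 84476775, minus strand) codes for tissue factor pathway inhibitor, which blocks activated factor X and the complex of tissue factor with factor VII. The GFP libraries were nearly identical at 137.9, 139.5 and 139.0 CPM, and the CRE libraries were at 96.7, 104.5 and 108.9 CPM. The groups were apart. *Tfpi* fell to 74.5% of 138.8 ± 0.804 CPM (SD, n = 3; log2 fold change -0.43, SE 0.05, edgeR adjusted p = 7.40e-05). The size of this change depended on the scaling. By library size alone it was -0.26 and with limma on log2(FPKM + 1) it was -0.19, both still past the threshold (adjusted p = 0.00154 and 0.0116). *Tfpi* is known to be made by endothelial cells, whose 13 markers fell in sum over the same libraries as given above, and their part in the value was not tested.

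The ratio of *F3* to *Tfpi* in FPKM was 0.711, 0.823 and 0.741 with GFP, against 0.602, 0.577 and 0.479 with CRE. It was lower in every CRE library than in any GFP library. The log2 difference was -0.46 (exact two-sided permutation p = 0.1, the smallest that 3 against 3 libraries allow, adjusted 0.15 over 3 ratios), and on scaled counts it was -0.39.

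*Tfpi2* (ENSMUSG00000029664, chromosome 6, positions 3962595 to 3988919, minus strand) codes for the second Kunitz-type inhibitor of this name, a matrix-bound inhibitor of plasmin and other serine proteases. Its level was 118.0, 133.1 and 123.4 CPM in GFP and 160.3, 164.4 and 131.5 CPM in CRE. CRE replicate 3 fell inside the GFP range, so the groups overlapped. The mean was 124.9 ± 7.67 CPM in GFP and 152.1 ± 17.9 CPM in CRE (SD, n = 3). *Tfpi2* rose by a log2 fold change of 0.28 (SE 0.08, edgeR adjusted p = 0.0143), the weakest of the 7 calls. The call was lost without CRE replicate 1 (0.25, adjusted p = 0.0549) and without CRE replicate 2 (0.23, adjusted p = 0.0566). By library size alone the change was 0.45, and with limma on log2(FPKM + 1) it was 0.44, both past the threshold.

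*Thbd* (ENSMUSG00000074743, chromosome 2, positions 148404466 to 148408188, minus strand) codes for thrombomodulin, the thrombin receptor of the protein C pathway. It was measured at 26.2, 39.4 and 29.1 CPM in GFP and at 32.3, 36.1 and 34.4 CPM in CRE. All CRE libraries lay within the range of the GFP libraries, which was wide. The log2 fold change of 0.12 (SE 0.13) did not pass the threshold (edgeR adjusted p = 0.472). By library size alone it was 0.28 and with limma on log2(FPKM + 1) it was 0.27, neither past the threshold. Without GFP replicate 2, the highest library, it was 0.30 (adjusted p = 0.0115), whereas without GFP replicate 1 it was 0.001 (adjusted p = 0.994).

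Levels were compared between genes on FPKM, the deposited values per length. In GFP the order from high to low was *Serpinf1* (888 ± 39.00 FPKM, SD, n = 3), *Tfpi2* (77.1 ± 4.79), *Serpine2* (68.7 ± 4.88), *Tfpi* (56.0 ± 1.65), *F3* (42.4 ± 2.53), *Plat* (26.2 ± 3.86), *Plaur* (17.1 ± 0.651), *Thbd* (8.02 ± 1.76) and *Plau* (2.88 ± 0.276). Of neighbours in that order, only *Tfpi2* and *Serpine2* had libraries that overlapped. In CRE the order differed at one place. *Plat*, at 50.2 ± 3.72 FPKM, moved from place 6 to place 4, above *Tfpi* (48.8 ± 2.54) and *F3* (26.9 ± 1.93), and its libraries overlapped those of *Tfpi*. *Tfpi2* (105.3 ± 12.6) and *Serpine2* (103.2 ± 9.53) overlapped again, and the other neighbours did not. *Serpinf1*, at 606 ± 32.1 FPKM, remained well above the other 8 genes in CRE.

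**Figure D3:**
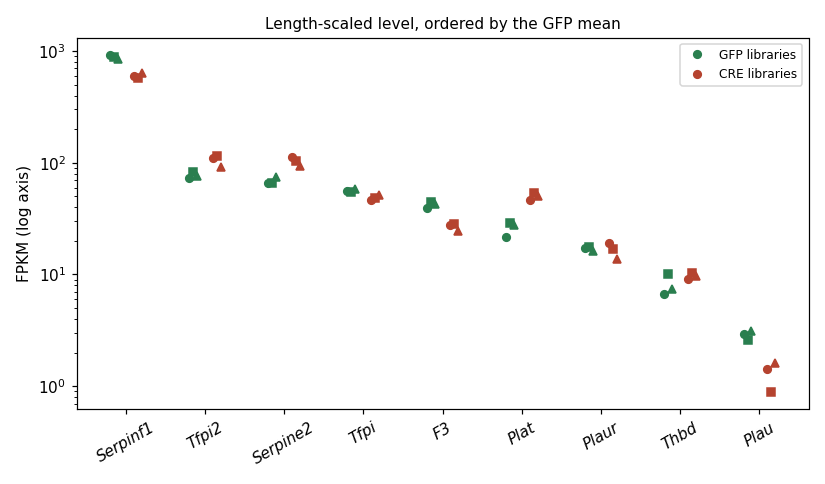
FPKM of the 9 genes on a log axis, one point a library (circle, square and triangle for replicates 1, 2 and 3), ordered by the GFP mean. *Serpinf1* is highest in both groups, *Plau* lowest, and the CRE points of *Plat* rise to those of *Tfpi*.

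The wider pathway was described from 52 further genes in 6 lists. Of these 37 had enough counts to be tested, 5 were higher in CRE and 12 lower, so 45.9% were called against 51.2% of all genes tested, and their median log2 fold change was -0.09. With library size alone 10 were higher and 8 lower, where 43.0% of all genes tested were higher and 16.2% lower. The 15 genes that were not tested had at most 12 counts in any library, among them *F7*, *F9*, *F10* and *F11*, clotting factors made mainly by the liver.

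Among the 5 tested genes for plasminogen and other inhibitors, *Serpini1*, which codes for neuroserpin, rose, with a log2 fold change of 0.33 (SE 0.07). *A2m*, the broad protease inhibitor alpha-2-macroglobulin, fell to 1.08 ± 0.256 from 2.01 ± 0.177 CPM (SD, n = 3; log2 fold change -0.89, SE 0.26, edgeR adjusted p = 0.0150). That call was lost in 4 of 16 other fits, namely with limma on log2(FPKM + 1) (-0.18) and log2(FPKM + 0.1) (-0.57), without GFP replicate 3 (-0.85) and without CRE replicate 3 (-0.71). *Serpinb2*, which codes for an inhibitor of urokinase, did not pass (-0.30, edgeR adjusted p = 0.158), and plasminogen itself (*Plg*) had 17 to 49 counts. Of 9 genes for plasminogen binding and for uptake of activator complexes, 5 were lower and 1 higher (66.7% called, against 51.2% of all genes tested). With library size alone or on FPKM values, however, 2 were lower and 2 higher. Of all genes tested, 16.2% were lower and 43.0% higher with library size alone. With limma on log2(FPKM + 1) the shares were 14.9% and 38.7%. *Lrp1*, the receptor that clears activator and inhibitor complexes, fell by 0.48 on the log2 scale (SE 0.05), from 4146 ± 238 to 2980 ± 102 CPM (SD, n = 3), with -0.31 by library size alone and -0.27 with limma on log2(FPKM + 1). *Vldlr*, a related receptor, fell by 0.78 (SE 0.09). *Anxa2*, annexin A2, was the 1 that was higher, at 0.26 (SE 0.05, edgeR adjusted p = 0.000887). *S100a10*, whose product binds plasminogen together with annexin A2, did not pass (0.02, edgeR adjusted p = 0.829).

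On the coagulation side, 2 of 9 tested factors were lower and none higher (22.2%, against 25.7% of all genes tested that were lower). *Vwf*, which codes for von Willebrand factor and is known as an endothelial gene, fell furthest of the 37 tested, from 40.8 ± 6.30 to 12.2 ± 1.66 CPM (SD, n = 3; log2 fold change -1.74, SE 0.13, edgeR adjusted p = 3.13e-06). The endothelial markers given above fell in the same libraries, and their part in this value was not tested. *Kng1*, kininogen, had -0.76 (SE 0.24, edgeR adjusted p = 0.0216) at 29 to 62 counts, a call lost in 6 of 16 other fits, namely with limma on log2(FPKM + 1) (-0.33) and log2(FPKM + 0.1) (-0.56), and without GFP replicate 1 (-0.67), GFP replicate 2 (-0.71), CRE replicate 2 (-0.65) and CRE replicate 3 (-0.66). Fibrinogen gamma (*Fgg*) did not pass (0.09, edgeR adjusted p = 0.695). Of 7 tested anticoagulant genes 1 was higher and none lower (14.3%, against 25.5% of all genes tested that were higher). With library size alone 4 were higher, where 43.0% of all genes tested were higher. The gene that was higher was *Procr*, the endothelial protein C receptor, at 0.29 (SE 0.05), and by library size alone the change was 0.46. Its direction was opposite to the fall of the endothelial markers in the same libraries, whose part in its value was not tested. *Serping1*, the C1 inhibitor, was the most abundant of that list and did not pass (0.02, edgeR adjusted p = 0.778).

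Both tested protease-activated receptors were higher, as were 25.5% of all genes tested. *F2rl1*, which codes for PAR2, a receptor for trypsin-like proteases and for the complex of tissue factor with factor VII, rose from 1.502 ± 0.261 to 4.08 ± 0.208 CPM (SD, n = 3; log2 fold change 1.45, SE 0.20, edgeR adjusted p = 0.000163), and with limma on log2(FPKM + 1), where low genes shrink, the change was 0.76. *F2r*, the thrombin receptor PAR1, was far more abundant and rose by a log2 fold change of 0.30 (SE 0.06), from 535 ± 34.6 to 659 ± 30.9 CPM (SD, n = 3), with 0.46 by library size alone. Of 5 genes of the vitamin K cycle and of factor secretion, 4 were lower (80.0%, against 25.7% of all genes tested). With library size alone 3 were lower and 1 higher, where 16.2% of all genes tested were lower and 43.0% higher. *Lman1* and *Mcfd2*, which form the cargo receptor for factors V and VIII, had log2 fold changes of -0.45 (SE 0.04) and -0.31 (SE 0.05). By library size alone these were -0.29 and -0.14, and with limma on log2(FPKM + 1) -0.23 and -0.17, all past the threshold. *Vkorc1*, the vitamin K reductase, had -0.42 (SE 0.07), or -0.26 by library size alone, and *Vkorc1l1* did not pass (0.02, edgeR adjusted p = 0.821).

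**Figure D4:**
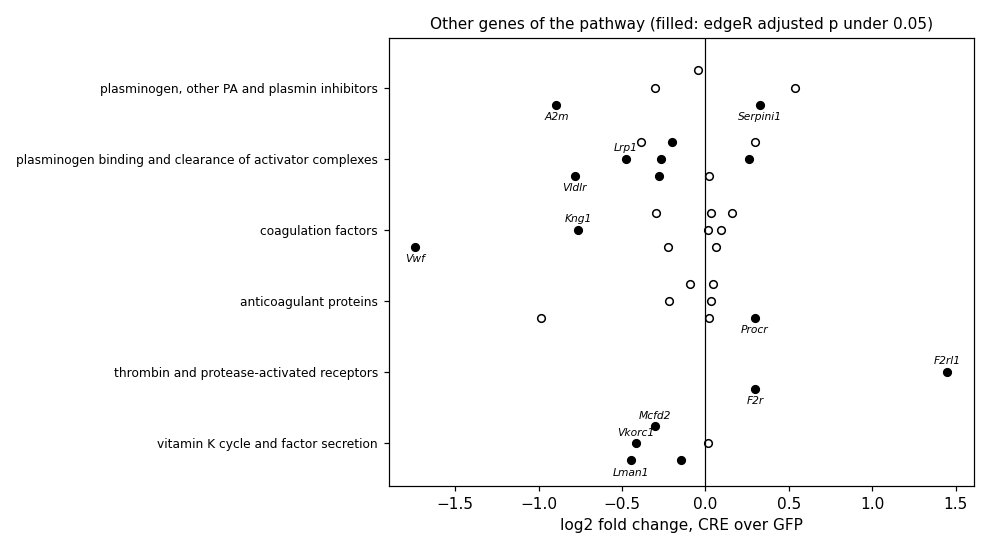
Log2 fold change of CRE over GFP for the 37 tested further genes, one circle a gene, by list (filled where the edgeR adjusted p was under 0.05; the vertical offset only separates circles). *F2rl1* (1.45) lies furthest right and *Vwf* (-1.74) furthest left.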

How the data were processed

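RNA-seq libraries of cardiac fibroblasts (3 GFP, 3 CRE, grouped and numbered by sample title) were compared. The authors used Trimmomatic for trimming, HISAT2 for mapping (GRCm38), HTSeq-count for gene counts and Cufflinks for FPKM, as their methods state. Tool versions and strand setting are not given in the sources used here, and labels and methods name different library kits. The authors deposited raw counts per gene, not normalized, FPKM per library and their mean per group. The deposited log2 fold change, p-value and false discovery rate are the authors' own comparison and were not used.

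Counts were fitted in edgeR 4.0.16 (R 4.3.3) over the whole table, with filterByExpr (minimum count 10, minimum total 15), TMM scaling and the two-sided quasi-likelihood test, Benjamini-Hochberg adjusted over 12862 genes. The SE is the absolute log2 fold change over the square root of F. A count of 0 allows up to 0.156 to 0.187 CPM (3 counts, counting error only). Ratios were tested by exact permutation. On simulated data with few changed genes the fit's calls had the right direction but held more false ones than the 0.05 threshold allows. Alternatives were other scalings and filters, DESeq2 1.42.0, limma 3.58.1 (voom, or log2 of FPKM plus 1 or 0.1), a replicate block, each library left out, and the threshold of the study. Genes and lists were chosen with earlier results of these data known. Of the wider pathway, the text names at most 12 genes with the largest change (adjusted p under 0.05, mean of at least 1 CPM, groups apart), plus the most abundant uncalled gene of each list, and others where said. In addition, 1 gene of the wider pathway lists is not reported here and is left out of their counts and of the serpin counts. Coordinates are from GENCODE M21 (GRCm38). Figures were drawn with matplotlib 3.10.9.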

Additional observations from a re-analysis of the deposited data

How the results depend on the processing

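None of the 9 genes changed direction in the 16 other fits, and *Plau*, *Plat*, *Serpine2*, *Serpinf1*, *F3* and *Tfpi* passed the threshold in each of them. Leaving out 1 library gave log2 fold changes from 0.23 to 0.38 for *Tfpi2*, from -0.31 to -0.078 for *Plaur* and from 0.0012 to 0.30 for *Thbd*, and between 2 and 4 of the 9 genes higher. GFP replicate 1 stood furthest from its group. The chi-square of its counts per degree of freedom was 12.2 against GFP replicate 2 and 9.42 against GFP replicate 3. Other pairs within a group had 4.06 to 5.55. At the threshold of the study 1 of the 9 was higher, and of the wider pathway 1 was higher and 4 lower, in place of 5 and 12, since that threshold asks for a minimum fold change. Of the wider pathway, 10 genes were higher with library size alone and 9 on FPKM values with either pseudocount, where 7 were lower. Of all genes tested, 43.0% were higher with library size alone. With limma on log2(FPKM + 1), 38.7% were higher and 14.9% lower. Library size alone moves all genes up. For FPKM the cause was not tested. Deviations from group means of same-numbered libraries correlated with r of 0.05, 0.18 and -0.02 for replicates 1, 2 and 3. Pairs with unlike numbers ran from -0.12 to 0.07, so the pair of replicates 2 was the highest. Whether same-numbered libraries shared animals or culture is not given, and these values cannot decide it. With the replicate number as a block, 3 of the 9 genes were higher and 4 lower (*Plaur* at -0.21), as without it. The fewest counts per library, 35 to 148 for *Plau*, limit its precision.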

Other observations

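The serpin family was described after its values were seen, by symbol. Of 29 tested serpins, those above included, 14 were lower and 2 higher (*Serpine2* and *Serpini1*), 55.2% were called, and the median log2 fold change was -0.37. Over all genes tested 51.2% were called, 25.7% lower (edgeR adjusted p). *Serpinh1*, which codes for the collagen chaperone HSP47, fell from 2546 to 1593 mean CPM, a log2 fold change of -0.68 (SE 0.04). Of 27 clade B serpins, which are mostly intracellular, 8 were tested, 7 were lower and *Serpinb2* did not pass. The falls ranged from -0.30 (SE 0.04) for *Serpinb6a* to -1.73 (SE 0.31) for *Serpinb1b*, with *Serpinb8* at -1.56 (SE 0.28), *Serpinb1a* at -1.42 (SE 0.10), *Serpinb6b* at -1.07 (SE 0.10) and *Serpinb9*, an inhibitor of granzyme B, at -1.44 (SE 0.10). *Serpina3n*, a secreted inhibitor, fell by 0.37 on the log2 scale (SE 0.05). Many clade A and B serpins are close paralogs in clusters, so reads may be split between copies and single values are uncertain.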
